A study of Homo sapiens with 8 samples.

Results

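The slit diaphragm and foot process core genes described here are 10 genes, chosen by name: the adhesion molecules NPHS1, KIRREL1, KIRREL2 and KIRREL3, the adaptors and scaffolds CD2AP, TJP1, MAGI2 and NCK1, the actin-associated gene SYNPO, and PODXL, a sialomucin of the cell surface. Each symbol matched 1 row among the 60564 genes of the count table. Of the 10, 8 had enough counts to test, among 16884 genes tested in all. NPHS1 and KIRREL2 were too low and are given by their counts.

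Podocytes are the epithelial cells that wrap the glomerular capillaries, and the gaps between their foot processes are bridged by the slit diaphragm, a cell junction that forms part of the kidney filter. Nephrin, the product of NPHS1, and the NEPH proteins encoded by the KIRREL genes span this gap as immunoglobulin-like adhesion molecules. Inside the foot process, CD2AP, the zonula occludens protein ZO-1 (TJP1) and MAGI2 tie these molecules to the cytoskeleton, and NCK adaptors bind phosphorylated nephrin and recruit regulators of actin assembly. Synaptopodin (SYNPO) organises the actin bundles of the foot process, and podocalyxin (PODXL) gives the podocyte surface its negative charge.

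RNA was sequenced from AB8/13, a human podocyte line with conditional immortalisation that grows at 33 °C and was moved to 37 °C for 5 days before RNA was taken. Lipid transfection brought in either a non-targeting shRNA, for the 4 control libraries, or 1 directed at ATOH8, a basic helix-loop-helix transcription factor, for the 4 knockdown libraries. All 8 libraries thus come from 1 cell line that carried an shRNA and was kept under the same differentiation conditions, and neither the shRNA sequences nor whether libraries came from separate cultures is known, so p-values describe the spread between these libraries. Total counts were 21108695 to 27109043 per library. ATOH8 itself fell from 5.83 ± 0.660 to 2.43 ± 0.329 CPM, that is counts scaled to a library total of 1000000 (SD, n = 4), with every knockdown library below every control library.

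Several transcripts that define a mature podocyte were scarce or missing in both groups. The summed level of 10 podocyte markers, some of them core genes, was 59.3 to 62.7 CPM in controls and 63.2 to 73.0 CPM after knockdown (5 tested, 2 higher, 2 lower). NES (mean 7.40 against 14.9 CPM) and SYNPO rose, while PLA2R1 (21.6 against 13.7 CPM) and PODXL fell. The phosphatase gene PTPRO had at most 8 counts in a library and CLIC5, a foot process protein gene, at most 9, while WT1, the podocyte and nephron progenitor factor, was at 5.61 ± 0.526 CPM in controls and 4.95 ± 0.551 CPM after knockdown (adjusted p = 0.170 in edgeR). Summed levels of genes that mark other cell types differed between the groups. The sum of 8 mesangial and pericyte markers was 95.4 to 99.6 CPM in controls and 170.4 to 186.9 CPM after knockdown (5 tested, 4 higher, 1 lower). Most of that rise was CSPG4 (mean 22.8 against 83.4 CPM), while RGS5 fell (8.82 against 6.71 CPM). The sum of 8 glomerular endothelial markers was 1.20 to 1.47 against 2.32 to 2.97 CPM (3 tested, 2 higher), with EMCN at 0 in all libraries and PECAM1 at no more than 1 count. The 6 parietal epithelial markers summed to 1749 to 1792 CPM in controls and 1987 to 2063 CPM after knockdown (6 tested, 3 higher, 1 lower). KRT8 (mean 374.4 against 515.8 CPM) and KRT19 (203.3 against 361.2 CPM) rose most in CPM, while PAX2 fell (16.4 against 11.7 CPM). For 6 leukocyte markers the sum was 76.5 to 86.4 against 102.6 to 112.6 CPM (3 tested, 2 higher), nearly all of it CD68 (mean 79.3 against 105.8 CPM), with PTPRC, CD3E and LYZ at no more than 3 counts. The sum of 6 proximal tubule markers was 4.50 to 7.17 against 2.50 to 2.83 CPM (2 tested, 1 higher, 1 lower). The fall was that of AQP1 (mean 5.19 against 1.14 CPM), while CUBN rose (0.564 against 1.07 CPM). Any part of these cell types in the results below was not tested.

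ATOH8 belongs to a family of factors that bind the E-box, a short DNA word, so the sequence before the start sites is shown for 3 core genes. CD2AP and SYNPO differed between the groups in edgeR, and NPHS1, too low to test, did not overlap in CPM, by a gap that rests on library scaling. TJP1, NCK1 and MAGI2 also differed in edgeR, but their windows are not shown. RefSeq start sites on GRCh38.p14 were listed for 7 of the 10 genes, with none for KIRREL1, KIRREL2 or PODXL. The lines below give the 250 bases before each start, 5′ to 3′ on the gene's strand, with every CANNTG, the E-box core, in capitals. That word reads the same on both strands.
NPHS1 (chr19:35852505-35852754, minus strand): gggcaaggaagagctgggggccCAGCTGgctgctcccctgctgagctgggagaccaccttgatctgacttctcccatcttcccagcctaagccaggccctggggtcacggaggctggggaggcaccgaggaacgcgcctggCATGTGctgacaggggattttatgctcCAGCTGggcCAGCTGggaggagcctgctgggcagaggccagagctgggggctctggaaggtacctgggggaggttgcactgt
CD2AP (chr6:47477539-47477788, plus strand): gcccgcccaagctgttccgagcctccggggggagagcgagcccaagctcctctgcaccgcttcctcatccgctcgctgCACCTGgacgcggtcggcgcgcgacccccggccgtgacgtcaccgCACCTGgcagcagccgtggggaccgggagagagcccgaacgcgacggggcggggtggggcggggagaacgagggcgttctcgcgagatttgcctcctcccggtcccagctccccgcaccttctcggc
SYNPO, first listed start (chr5:150600826-150601075, plus strand): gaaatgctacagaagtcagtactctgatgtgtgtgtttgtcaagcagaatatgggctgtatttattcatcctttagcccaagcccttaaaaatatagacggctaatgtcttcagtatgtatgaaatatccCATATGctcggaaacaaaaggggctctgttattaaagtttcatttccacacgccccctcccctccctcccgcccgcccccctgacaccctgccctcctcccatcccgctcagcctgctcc
SYNPO, second listed start (chr5:150640410-150640659, plus strand): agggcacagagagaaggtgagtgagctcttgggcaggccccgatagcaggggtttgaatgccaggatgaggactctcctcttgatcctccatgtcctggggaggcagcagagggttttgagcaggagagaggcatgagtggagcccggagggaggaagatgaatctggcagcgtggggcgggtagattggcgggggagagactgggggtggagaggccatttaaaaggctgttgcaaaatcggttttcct

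At least 1 CANNTG lay in 7 of the 12 windows of the 7 listed core genes (58.3%), and in 61.8% of 35116 windows of the same kind over all genes. All 7 genes had the word in some window, and TJP1, NCK1 and SYNPO also had windows without it. The NPHS1 window held 4 such words, of which 3 were CAGCTG. That form of the E-box lay in 2 of the 12 core gene windows, those of NPHS1 and MAGI2, and in 14.0% of all windows. The CD2AP window held CACCTG at 2 places, the first SYNPO window held CATATG and the second held none. These matches describe the letters of the windows alone. No binding was measured, and the counts do not tell which start site a transcript used.

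The core genes covered a wide range of levels. Divided by the length of the longest coding transcript in GENCODE 29, the control levels were 83.2 ± 2.42 CPM per kb for KIRREL1, 41.9 ± 1.06 for CD2AP, 27.4 ± 1.09 for TJP1, 13.0 ± 0.619 for NCK1, 4.37 ± 0.404 for PODXL, 2.44 ± 0.161 for SYNPO, 0.744 ± 0.0520 for KIRREL3 and 0.530 ± 0.0410 for MAGI2 (SD, n = 4). In that order every control library of a gene stood above every control library of the next. KIRREL2, at 0.0258 ± 0.0279, and NPHS1, at 0.00438 ± 0.00877 CPM per kb, came last and overlapped. With the length of all exons in place of the longest transcript, SYNPO came before PODXL and the other ranks were the same. KIRREL1 alone supplied 99.1% of the summed control level per kb of the 3 KIRREL genes, and KIRREL3, the next of them, stood 112 times below it.

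**Figure D1:**
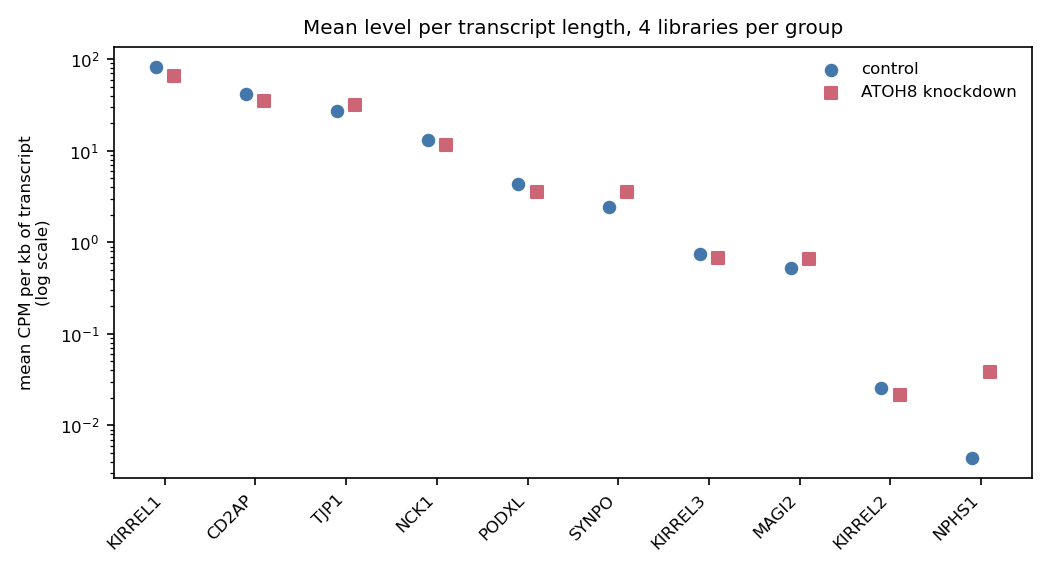
Mean CPM per kb of the longest coding transcript (vertical, log scale) for the 10 core genes (horizontal, in order of control level), with circles for control and squares for ATOH8 knockdown, each the mean of 4 libraries. Levels run from 83.2 CPM per kb for KIRREL1 to 0.00438 for NPHS1 in control, and PODXL and SYNPO, apart in control, have like means in knockdown libraries on this scale, though not per kb of all exons.

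In knockdown libraries, on the same scale of the longest transcript, SYNPO was at 3.53 ± 0.291 and PODXL at 3.57 ± 0.461 CPM per kb, and their libraries overlapped. CD2AP (34.9 ± 2.45) and TJP1 (31.3 ± 0.691 CPM per kb) overlapped as well, as did KIRREL3 (0.670 ± 0.105) and MAGI2 (0.653 ± 0.0818 CPM per kb). These meetings depended on the length used. Per kb of all exons the knockdown means stood apart, at 2.43 for SYNPO and 1.09 for PODXL, 28.02 for CD2AP and 22.1 for TJP1, and 0.387 for KIRREL3 and 0.142 CPM for MAGI2. On that scale SYNPO and PODXL were at 1.68 and 1.34 CPM per kb in controls, so their means moved further apart. KIRREL1, at 65.0 ± 1.67 CPM per kb of the longest transcript, stood above all others. The summed level of the 10 genes was 1118 to 1163 CPM in controls and 970.5 to 1024 CPM after knockdown, and KIRREL1 made up 54.7% to 56.1% and 47.9% to 50.5% of these sums.

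The core genes did not move as a group. Of the 8 tested, 3 rose (SYNPO, MAGI2 and TJP1), 4 fell (KIRREL1, PODXL, CD2AP and NCK1) and 1 (KIRREL3) did not pass the test, which was the quasi-likelihood test of edgeR with p-values adjusted over all genes by Benjamini-Hochberg and a threshold of 0.05. Over all genes tested 51.1% were called, 25.2% higher and 25.9% lower, so a call in itself was common here. The median log2 fold change of knockdown against control was -0.16 over the 8 genes and -0.000721 over all genes tested, and the core genes that were called had a median absolute log2 change of 0.29, as had all called genes. Groups did not overlap in CPM for 5 of the 8 (62.5%), against 45.6% of all genes tested. In bulk RNA, fewer cells of a type and less RNA per cell cannot be told apart.

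**Figure D2:**
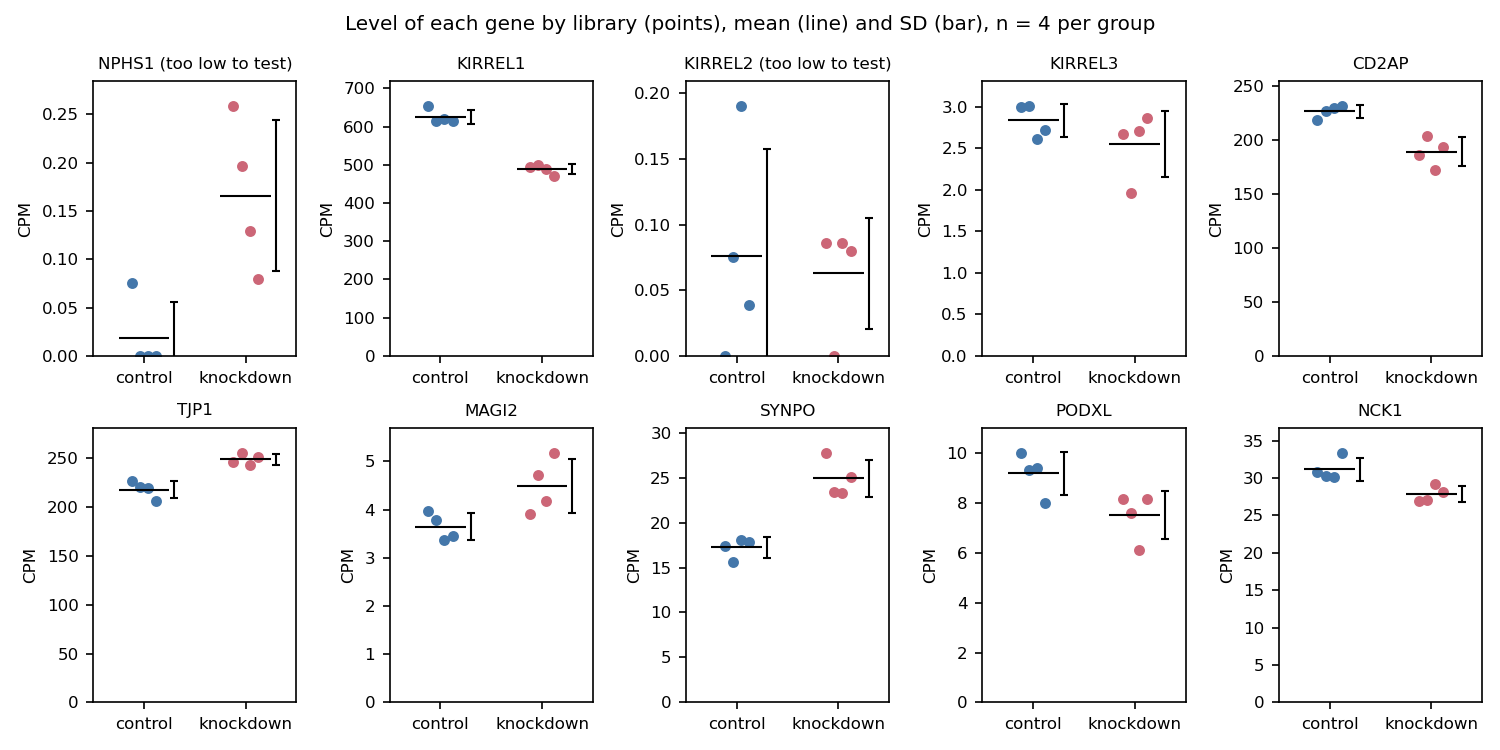
CPM (vertical, from 0) of each of the 10 core genes in every control and ATOH8 knockdown library (points), with the group mean (line) and SD (bar, drawn no lower than 0), n = 4 per group. KIRREL1 is 615 to 653 CPM in controls and 471 to 499.8 CPM after knockdown, and SYNPO 15.6 to 18.1 against 23.3 to 27.7 CPM, while the groups of KIRREL3, MAGI2, PODXL and KIRREL2 overlap.

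Among the adhesion molecules, KIRREL1 (ENSG00000183853.18, chromosome 1), which encodes NEPH1, the partner of nephrin, fell. Its level was 653, 615, 620 and 615 CPM in the control libraries and 496, 500, 490 and 471 CPM in the knockdown libraries, in the order of their replicate numbers. Every knockdown library was lower than every control library. The mean went from 625.6 ± 18.2 to 489.1 ± 12.6 CPM (SD, n = 4), or 78.2% of the control mean (log2 change -0.36 with SE 0.031, adjusted p = 1.04e-10 in edgeR). With 11376 to 17412 counts per library, it was the most deeply counted of the core genes.

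KIRREL3 (ENSG00000149571.12, chromosome 11), which encodes NEPH2, was low and showed no change past the threshold. Its levels were 3.00, 3.00, 2.61 and 2.72 CPM in controls and 2.67, 1.96, 2.71 and 2.87 CPM after knockdown, from 50 to 80 counts each. The groups overlapped, with knockdown replicate 2 the lowest of all 8. The log2 fold change was -0.16 with a 95% interval of -0.46 to 0.15 (edgeR adjusted p = 0.403), so a fall or a small rise within that interval was not detectable at this depth. Without knockdown replicate 2 the value was -0.04.

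KIRREL2 (ENSG00000126259.19, chromosome 19), which encodes NEPH3, had 0, 2, 4 and 1 counts in controls and 2, 0, 2 and 2 counts after knockdown. The pooled rate ratio of knockdown to control was 0.884, with an exact 95% counting interval of 0.246 to 3.07, and the exact two-sided permutation test over the 70 assignments of libraries gave p = 0.886. The interval covers the counting of reads alone and leaves out the spread between libraries. The counts do not set the groups apart.

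NPHS1 (ENSG00000161270.19, chromosome 19), which encodes nephrin itself, had 2, 0, 0 and 0 counts in the control libraries and 6, 5, 3 and 2 counts in the knockdown libraries. In CPM each knockdown library stood above each control library, the closest being knockdown replicate 4 at 0.0796 and control replicate 1 at 0.0750 CPM. Both of these libraries had 2 counts, so the counts are tied and the gap comes from library scaling alone. Pooled over each group, 16 counts against 2 gave a rate ratio of 8.25 with an exact 95% counting interval of 1.94 to 74.0. That interval too leaves out the spread between libraries. The mean difference was 0.147 CPM, or 0.166 CPM without control replicate 1. The exact two-sided permutation test on CPM gave p = 0.0286 without adjustment, the smallest that 4 libraries against 4 allow. That value needs the small gap between control replicate 1 and knockdown replicate 4. NPHS1 did not pass the filter on low counts. Without that filter edgeR gave a log2 fold change of 2.77 (adjusted p = 0.0173 over the larger set of genes). The interval, the permutation test and this fit rest on the same few counts. Even in knockdown libraries the level of NPHS1, 0.166 ± 0.0779 CPM, was a trace. In GENCODE 29 the exons of NPHS1 share 232 bases with APLP1, an amyloid precursor-like gene on the opposite strand, and 107 bases with KIRREL2, also opposite. APLP1 rose from 36.0 ± 0.492 to 54.2 ± 1.32 CPM (log2 change 0.59 with SE 0.040, adjusted p = 6.04e-13 in edgeR). The sources used here do not say whether the counting used strand, and the part of such reads in the NPHS1 counts was not tested.

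The intracellular adaptors CD2AP and NCK1 fell, and both scaffolds, TJP1 and MAGI2, rose. CD2AP (ENSG00000198087.7, chromosome 6), which links the slit diaphragm to actin and to endocytosis, was at 218, 227, 230 and 231 CPM in controls and 186, 204, 173 and 194 CPM after knockdown. The groups did not overlap. The mean went from 226.6 ± 5.76 to 189.2 ± 13.3 CPM, 83.5% of the control level (log2 change -0.26 with SE 0.040, adjusted p = 8.19e-06 in edgeR).

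NCK1 (ENSG00000158092.7, chromosome 3), the SH2 and SH3 adaptor that binds phosphorylated nephrin, was at 30.8, 30.3, 30.2 and 33.3 CPM in controls and 27.0, 27.1, 29.2 and 28.1 CPM after knockdown. Again no knockdown library reached the lowest control library. The fall was small, from 31.1 ± 1.49 to 27.8 ± 1.04 CPM, or 89.2% of the control level (log2 change -0.16 with SE 0.049, adjusted p = 0.00609 in edgeR). A stretch of 66 exon bases is shared on the same strand with IL20RB, a cytokine receptor gene with 15 to 47 counts per library, against at least 627 for NCK1.

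TJP1 (ENSG00000104067.16, chromosome 15), which encodes ZO-1, the scaffold of tight junctions that also binds NEPH1, was at 226, 220, 219 and 206 CPM in controls and 246, 255, 242 and 251 CPM after knockdown. The knockdown libraries were the higher ones throughout. The mean rose 1.14-fold, from 217.7 ± 8.68 to 248.6 ± 5.49 CPM (log2 change 0.19 with SE 0.033, adjusted p = 1.48e-05 in edgeR).

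MAGI2 (ENSG00000187391.21, chromosome 7), a scaffold with several PDZ domains that binds nephrin, was at 3.97, 3.79, 3.38 and 3.45 CPM in controls and 3.91, 4.71, 4.17 and 5.18 CPM after knockdown. Knockdown replicate 1 lay below control replicate 1, so the groups overlapped. The rise was 1.23-fold, with a log2 fold change of 0.30 and a 95% interval of 0.05 to 0.55 (SE 0.120, edgeR adjusted p = 0.0381), from 71 to 130 counts per library. The call depended on single libraries. It passed in only 3 of the 8 fits that left out 1 library, being lost without knockdown replicate 2 (adjusted p = 0.0860) or 4 (0.155) and without control replicate 2 (0.0514), 3 (0.0941) or 4 (0.0923), and it was lost without a filter on low counts (0.0716) and in DESeq2 (0.146).

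The locus of MAGI2 also holds MAGI2-AS3, a noncoding gene on the opposite strand whose exons share 172 bases with those of MAGI2. MAGI2-AS3 had far more counts, 1237 to 2054 per library, and fell from 74.4 ± 2.09 to 55.8 ± 2.96 CPM (log2 change -0.41 with SE 0.040, adjusted p = 8.34e-10 in edgeR). The annotated pair thus went in opposite directions in these counts, and since the strand setting is not known, reads of the shared stretch cannot be told apart.

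SYNPO (ENSG00000171992.13, chromosome 5) had the largest log2 change of the 8 tested core genes. Its levels were 17.4, 15.6, 18.1 and 17.9 CPM in controls and 27.7, 23.5, 23.3 and 25.1 CPM after knockdown. All 4 knockdown libraries were above all 4 control libraries. The mean rose 1.45-fold, from 17.2 ± 1.14 to 24.9 ± 2.06 CPM (log2 change 0.53 with SE 0.062 and 95% interval 0.41 to 0.66; adjusted p = 2.74e-08 in edgeR).

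PODXL, the sialomucin, fell. Its level (ENSG00000128567.17, chromosome 7) was at 10.01, 9.34, 9.41 and 7.99 CPM in controls and 8.17, 7.62, 6.11 and 8.16 CPM after knockdown. The groups overlapped, since control replicate 4 lay below knockdown replicates 1 and 4. The mean went from 9.19 ± 0.851 to 7.52 ± 0.970 CPM, 81.9% of the control level (log2 change -0.29 with SE 0.094, adjusted p = 0.0118 in edgeR). The call was lost without knockdown replicate 3 (log2 -0.20, adjusted p = 0.0679) and in DESeq2 (adjusted p = 0.0509).

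**Figure D3:**
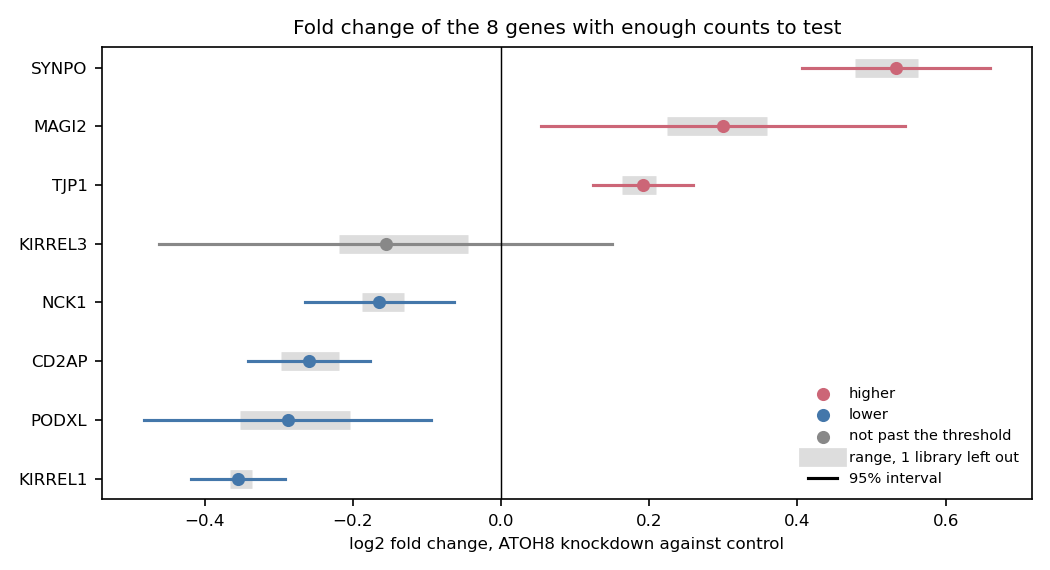
Log2 fold change of ATOH8 knockdown against control (horizontal) for the 8 core genes with enough counts, with the edgeR estimate (point), its 95% interval (line) and the range over fits that left out 1 library each (grey bar). SYNPO, at 0.53, and KIRREL1, at -0.36, stand at the ends, and the interval of KIRREL3 spans 0.

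Ratios of genes within a library do not depend on how libraries are scaled, and they were used to set core genes beside their paralogues, that is, beside related genes of the same family. For 5 such pairs the groups were compared with the exact two-sided permutation test over 70 assignments, adjusted over the 5, of which 4 are given here. The smallest p that this test allows is 0.0286, and pairs at that limit share the adjusted value of 0.0476. The ratios use the same counts as the tests of single genes, so they are not further support for those calls. The ratio of NCK1 to NCK2 counts was 0.763, 0.762, 0.744 and 0.843 in controls and 0.695, 0.669, 0.691 and 0.656 after knockdown. All knockdown ratios were lower, by 0.20 on average on the log2 scale (exact permutation p = 0.0286, adjusted p = 0.0476), while NCK2, the other NCK adaptor, had a log2 change of 0.04 with SE 0.043 (adjusted p = 0.512 in edgeR).

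CD2AP behaved likewise beside SH3KBP1, its paralogue CIN85. There were 2.88, 3.23, 3.17 and 3.19 CD2AP counts for each SH3KBP1 count in controls and 2.47, 2.79, 2.43 and 2.65 after knockdown. The groups did not overlap (mean log2 difference -0.27, exact permutation p = 0.0286, adjusted p = 0.0476), and SH3KBP1 itself had a log2 change of 0.01 with SE 0.037 (adjusted p = 0.865 in edgeR).

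The scaffold MAGI2 differed by partner. It went up against MAGI3 (mean log2 difference 0.32, exact permutation p = 0.0286, adjusted p = 0.0476, no overlap) but not past the threshold in either direction against MAGI1 (-0.18, exact permutation p = 0.171, adjusted p = 0.214, groups overlapping), the paralogue that rose from 20.3 ± 1.15 to 28.2 ± 0.609 CPM. Against MAGI3 the groups nearly touched, at 0.209 MAGI2 counts for each MAGI3 count in control replicate 1 and 0.214 in knockdown replicate 1. MAGI3 itself had a log2 change of -0.02 with SE 0.054.

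The ratio of KIRREL1 to TJP1, 2 genes whose proteins bind each other, was looked at after their values had been seen and is a description without a test. There were 2.89, 2.79, 2.83 and 2.99 KIRREL1 counts for each TJP1 count in control libraries and 2.01, 1.96, 2.02 and 1.88 in knockdown libraries. The ratio thus lay in 2 narrow and separate ranges.

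**Figure D4:**
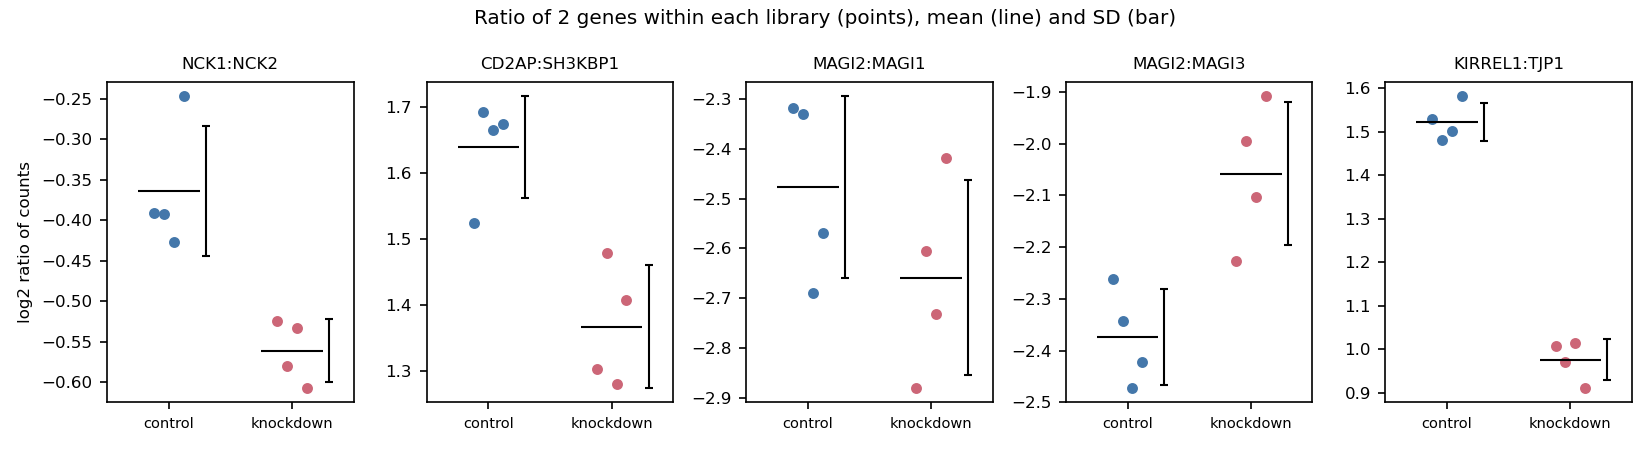
Log2 ratio of the counts of 2 genes (vertical, separate scales that do not start at 0) in each control (blue) and ATOH8 knockdown (red) library, with mean (line) and SD (bar), n = 4 per group. The ratios NCK1:NCK2, CD2AP:SH3KBP1, MAGI2:MAGI3 and KIRREL1:TJP1 do not overlap between groups, and MAGI2:MAGI1 does.

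Paralogues of the core genes were counted as a list. Of 10 listed, 8 had enough counts, 2 rose, 2 fell and 4 did not pass. The share called was 50%, against 51.1% of all genes tested. Log2 changes of the 8 paralogues had a median of 0.02. MAGI1 (log2 change 0.48 with SE 0.052, adjusted p = 6.52e-09 in edgeR) was among those that rose. PODXL2, which encodes the podocalyxin-like sialomucin endoglycan, fell from 17.9 ± 0.83 to 10.8 ± 0.776 CPM (log2 change -0.74 with SE 0.067, adjusted p = 2.25e-10 in edgeR). CD34, the stem and endothelial cell sialomucin, fell from 2.10 ± 0.172 to 1.29 ± 0.127 CPM (log2 change -0.70 with SE 0.180, adjusted p = 0.00181 in edgeR). Both belong with PODXL to the CD34 family, and all 3 had lower means in knockdown libraries, PODXL with the limits given above.

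Of 16 other proteins of the slit diaphragm or bound to it, 11 had enough counts. Of these 7 rose, 2 fell and 2 did not pass, where 25.2% of all genes tested rose and 25.9% fell. The median of their log2 changes was 0.27. PRKCI, the atypical protein kinase C of the polarity complex, rose from 122.5 ± 2.84 to 161.0 ± 5.61 CPM (log2 change 0.39 with SE 0.033, adjusted p = 5.63e-11 in edgeR). PARD6B, its partner in that complex, rose from 20.1 ± 0.721 to 26.9 ± 1.84 CPM (log2 0.42, SE 0.055), and IQGAP1, an actin scaffold that binds nephrin, rose from 651.0 ± 11.6 to 783.4 ± 13.4 CPM (log2 0.27, SE 0.029). PARD3, the third protein of the polarity complex, fell from 175.9 ± 3.90 to 155.2 ± 3.10 CPM (log2 change -0.18 with SE 0.031, adjusted p = 1.89e-05 in edgeR). CTNND1, which encodes p120-catenin, fell as well (log2 -0.18, SE 0.029). Among the 5 that were too low, CDH3 (P-cadherin), named after its values were seen, had 1, 3, 0 and 0 counts in controls and 5, 6, 8 and 5 counts after knockdown.

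Of 20 genes on the way from nephrin phosphorylation to actin assembly, all had enough counts, 7 rose, 9 fell and 4 did not pass. That is 80% called, against 51.1% of all genes tested. The changes were small, with a median absolute log2 change of 0.127 in the list and 0.189 over all genes tested. Among called genes it was 0.164 in the list and 0.293 over all genes. The median log2 change of the list was -0.06. The SRC family kinase FYN, which phosphorylates nephrin, rose from 33.9 ± 0.828 to 45.2 ± 2.02 CPM (log2 change 0.42 with SE 0.045, adjusted p = 5.87e-09 in edgeR), as did SRC (log2 0.29, SE 0.034) and ARPC3, a subunit of the Arp2/3 complex (log2 0.21, SE 0.033). ACTR3, the Arp3 subunit of the same complex, fell from 620.4 ± 18.9 to 523.5 ± 22.5 CPM (log2 change -0.24 with SE 0.033, adjusted p = 4.16e-07 in edgeR). The NCK effector WASL, encoding N-WASP, fell (log2 -0.24, SE 0.041), and so did WIPF1, which encodes the N-WASP binding protein WIP (log2 -0.38, SE 0.058).

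Of 17 genes of foot process actin and of the link between podocalyxin and actin, 7 rose, 6 fell and 4 did not pass. Calls made up 76.5% of the list, against 51.1% of all genes tested. Here too the median absolute log2 change was smaller in the list, 0.140 against 0.189 over all genes tested. Among called genes it was 0.223 in the list and 0.293 over all genes. The median log2 change of the list was 0.03. NHERF2, a scaffold that ties podocalyxin to ezrin, rose from 5.59 ± 0.482 to 9.23 ± 1.05 CPM (log2 change 0.72 with SE 0.096, adjusted p = 2.81e-07 in edgeR), so that it went up while PODXL went down. NHERF1, of the same list and named after its values were seen, had a far higher level and did not pass. It was at 101.5 ± 2.48 CPM in controls and 105.4 ± 3.84 CPM after knockdown (adjusted p = 0.216 in edgeR). INF2, an actin formin (log2 0.31, SE 0.033), and MYO1E, a podocyte myosin (log2 0.26, SE 0.031), rose. ANLN, an actin-binding protein of cell division that also binds CD2AP, fell from 312.4 ± 4.23 to 220.8 ± 16.8 CPM (log2 change -0.50 with SE 0.041, adjusted p = 3.57e-09 in edgeR). RDX, the ezrin relative radixin (log2 -0.22, SE 0.031), and CAPZA2, a subunit of the actin capping protein that CD2AP binds (log2 -0.21, SE 0.035), fell.

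**Figure D5:**
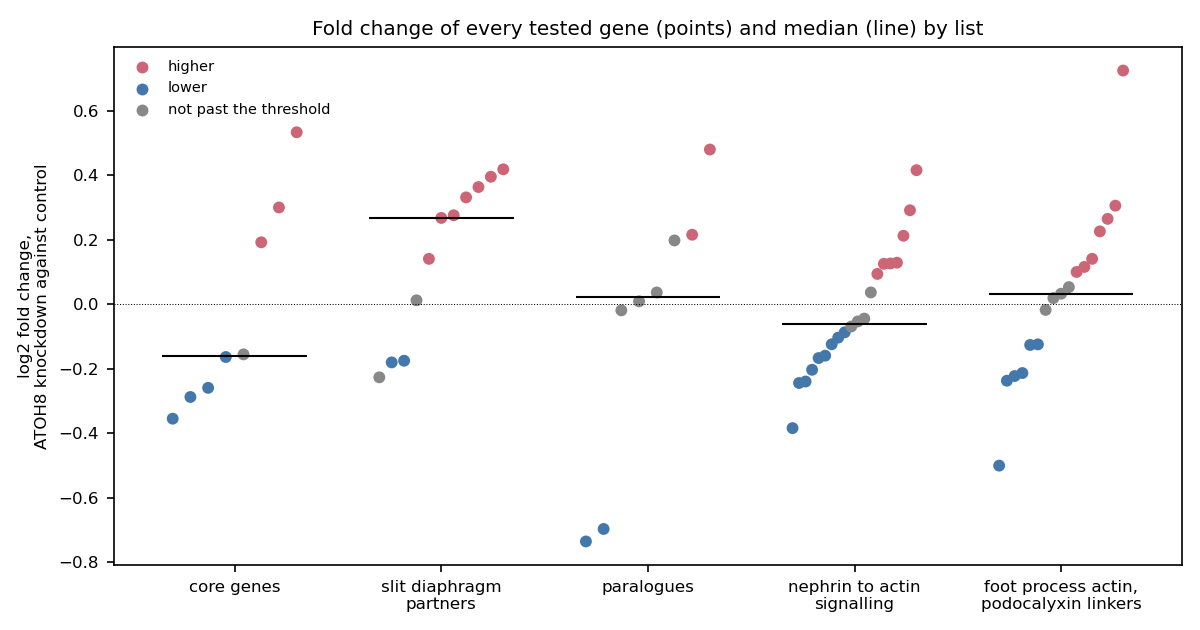
Log2 fold change of ATOH8 knockdown against control (vertical) for every gene with enough counts in the core genes and the 4 other lists (points; red higher, blue lower, grey not past the threshold), with the median of each list (line). The medians run from -0.16 for the core genes to 0.27 for the slit diaphragm partners, and each list holds genes of both directions.

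The genes whose levels followed SYNPO and KIRREL1 most closely over the 8 libraries were found by Pearson correlation of log2 CPM. For SYNPO they were PLSCR3 (r = 0.994), a phospholipid scramblase family gene, OSBP2 (r = 0.991), an oxysterol-binding protein family gene, and BAX (r = 0.989), an apoptosis effector. For KIRREL1 they were NPFFR2 (r = 0.998), a neuropeptide receptor gene, ABLIM3 (r = 0.998), which encodes an actin-binding LIM protein, and PAPPA (r = 0.996), a metalloprotease gene. The 8 points of each correlation fall into the 2 groups and share libraries and depth, and r was over 0.95 for 385 genes with SYNPO and for 822 with KIRREL1, so these values describe the ordering and carry no test.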

How the data were processed

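The data are gene counts from 8 RNA libraries, 4 control and 4 ATOH8 knockdown, grouped by their titles. The authors deposited 1 table of whole-number counts per gene, and the submitters' processing notes name hg19, FastQC, STAR, featureCounts and DESeq2 without versions. The sources used here do not give the annotation or the strand setting. Of 60609 rows, 1 with a missing cell and 44 pseudoautosomal copies, all without counts, were left out. Symbols came from a gene name table and, for 250 genes, from GENCODE 29, which is on another build, so gene coordinates are not printed.

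Genes were filtered with filterByExpr, scaled by TMM and tested with edgeR 4.0.16 (glmQLFTest, robust) under R 4.3.3, a script also tested on simulated data. The SE was taken from the F statistic. CPM are counts scaled to 1000000 per library after TMM. Alternatives were DESeq2 1.42.0, its size factors, other filters, a replicate block and leaving out each library. E-box words were searched in RefSeq windows with Python 3.11.15. Of 12 library pairs within groups, none agreed within sampling noise (chi-square per gene 1.89 to 4.42). Named genes were all core genes, up to 3 rising and 3 falling genes per list by adjusted p, and 3 correlated genes each for SYNPO and KIRREL1. The core genes and lists were chosen with earlier results of these data known. Results for some listed genes, among them 1 ratio, are not reported here.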

Additional observations from a re-analysis of the deposited data

Results flagged for a closer look

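Among 32 groups of 4 libraries examined for a library standing apart (Dixon's gap ratio at its 95% critical value), 4 held one. Chance alone gives about 1 in 20 groups of normally distributed values. That rate does not hold for NPHS1 and KIRREL2, whose few counts are often tied. NPHS1 in control replicate 1 was at 0.0750 CPM, from 2 counts, while the other control libraries were at 0. For KIRREL1, control replicate 1 was the highest control library at 652.7 CPM, against 614.5 to 619.8 CPM in the others. KIRREL2 in knockdown replicate 2 was at 0, against 0.0796 to 0.0861 CPM in the other knockdown libraries, a step of 2 counts. The log2 ratio of CD2AP to SH3KBP1 was lowest among controls in control replicate 1, at 1.525, against 1.665 to 1.693 in the others.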

How the results depend on the processing

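Each core gene with enough counts kept its direction under all 13 alternatives, and KIRREL1, CD2AP, TJP1, SYNPO and NCK1 stayed past the threshold in each. The calls that were lost were those of MAGI2 and PODXL. The log2 fold change of MAGI2 was 0.2985 in DESeq2 and 0.2943 without a filter on low counts, both no longer past the threshold, and leaving out single libraries gave 0.2241 to 0.3592. PODXL was at -0.2909 in DESeq2 and without single libraries between -0.3519 and -0.2041. The cause was not tested. Counts of called genes in each list, and over all genes, stayed within 1.5 times the reported ones. With the replicate number as a block, 8802 genes were called in place of 8625, the core genes again split into 3 higher and 4 lower, and no call of a core gene changed. Deviations of same-numbered libraries correlated at 0.00143 to 0.0574, all under 0.1, so the numbers were not taken to pair the libraries. Of the 4 control libraries, 3 correlated best with the knockdown library of their own number, and control replicate 3 with knockdown replicate 2. Mean differences of the 5 ratios moved by less than 1 SD of the libraries under each alternative. With 3 libraries against 4 the permutation test of a ratio cannot reach the threshold, so only the values were compared there. The mean difference of KIRREL2 lay between -0.0384 and 0.0250 CPM without single libraries, an alternative chosen after seeing the data, and that of NPHS1 from 0.116 to 0.176 CPM. Genes with few counts limit what can be seen: KIRREL3, with 50 to 80 counts per library, has an interval wider than the changes of most core genes.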
